A study of Mus musculus with 13 samples.

Results

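Vessels run through every piece of brain tissue, and the small RNA of a whole hippocampus or prefrontal cortex (PFC) therefore carries miRNAs of the vessel wall. The values below follow 3 miRNA hairpins of that kind, mmu-mir-126a, mmu-mir-143 and mmu-mir-145a, in 13 mouse brain libraries. They were taken by hairpin name, with both arms of each hairpin. This gave 6 pairs of a hairpin and a mature miRNA of the 1514 pairs listed over all libraries, and 3 of the 903 hairpins. All 6 pairs were listed in every library and passed the filter on low counts in every comparison.

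The study compared TgR mice with FVB/N mice, the parent strain. TgR mice overexpress AChE-R, the stress-induced variant of human acetylcholinesterase, from a constitutive CMV promoter-enhancer that is not restricted to cells of the vessel wall. The hippocampus was sequenced from 3 FVB/N and 3 TgR mice, and the PFC from 3 FVB/N and 4 TgR mice. Age, sex and behaviour of the sequenced mice were not given in the sources used here. The study describes its TgR mice as a mixed group that varies in behaviour. The PFC labels name animals, whereas the hippocampal labels carry a number alone, and they do not say whether hippocampus and PFC came from the same mice. Where libraries of a group were not separate mice, the p-values would measure technical spread. Messenger RNA of the transgene is not part of small RNA, so the genotype could not be checked in the counts.

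miR-126 is best known from endothelial cells, where it lies within the gene Egfl7 and favours the response to VEGF by restraining inhibitors of that pathway such as Spred1. miR-143 and miR-145 are made from a shared primary transcript in smooth muscle cells and pericytes, the mural cells that wrap the endothelium, and they help to hold smooth muscle in its contractile state. A hairpin is cut into a 5p and a 3p arm, of which usually one is kept in the Argonaute complex and the other is degraded. The kept arm recognises messenger RNAs mainly through its seed, bases 2 to 8.

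The hairpin of mir-126a (gene Mir126a, 73 bases) lies on the plus strand of chr2:26591357-26591429 in the mouse build GRCm38. It sits inside Egfl7, which is on the same strand, in an intron of all but 1 of the 9 annotated Egfl7 transcripts that span it (GENCODE M21). In the remaining transcript the hairpin overlaps an exon. The hairpin is shown because both arms are counted from it, with miR-126a-3p in capitals. The mature miR-126a-3p (chr2:26591402-26591423) and miR-126b-5p, a miRNA from the opposite strand (chr2:26591399-26591420), are shown with their seeds in capitals because they overlap by 19 bases and yet differ in seed. The sequences are those of RefSeq on GRCm38.p6, and run 5′ to 3′.
mir-126a hairpin: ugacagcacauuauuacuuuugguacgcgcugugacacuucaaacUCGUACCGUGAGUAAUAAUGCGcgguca
miR-126a-3p: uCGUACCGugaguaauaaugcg
miR-126b-5p: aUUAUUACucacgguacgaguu
No other of the 1679 mature mouse miRNAs in the RefSeq table shares the seed of miR-126a-3p. The counts came almost wholly from the mir-126a strand, as mir-126b was listed with 1 read in a single library, TgR PFC replicate 4.

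The depth of the libraries lay between 8769851 counts (TgR PFC replicate 2) and 18385985 counts (TgR hippocampus replicate 1), and 3 counts, the floor taken for counting error, amounted to 0.163 to 0.342 CPM. CPM are read counts adjusted as if every library held an equal total, for the levels below with the TMM factors of edgeR over all 13 libraries. Because a read stands for a whole mature miRNA, levels of different miRNAs need no correction for length. Adapter ligation favours some sequences over others, however, so the order of levels between miRNAs is that of the reads. Together the 6 arms took 1.12% to 2.10% of the counts of a library. With a single row per mature miRNA, so that reads listed at several hairpins enter 1 time, the 6 arms took 1.85% to 3.44% and the 7 mature miRNAs of the neuronal hairpins of miR-124, miR-9 and miR-128 took 29.03% to 40.73%. In bulk tissue, fewer cells of a type and less RNA per cell cannot be told apart.

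miR-126a-3p was the most abundant of the 6 arms, with rank 11 to 26 among all pairs of its library. In FVB/N hippocampi it stood at 10217, 9131 and 15244 CPM in replicates 1 to 3, and in TgR hippocampi at 9533, 8356 and 9313 CPM. FVB/N hippocampus replicate 3 stood well above the other 5 hippocampal libraries. In FVB/N PFC it stood at 15079, 11036 and 13277 CPM, and in TgR PFC at 13934, 10515, 13088 and 12706 CPM. Group means ± SD were 13130 ± 2026 in FVB/N PFC (n = 3), 12561 ± 1457 in TgR PFC (n = 4), 11531 ± 3261 in FVB/N hippocampus (n = 3) and 9067 ± 626 in TgR hippocampus (n = 3). Neighbours in this order overlapped between their libraries.

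miR-126a-5p, the other arm, was read far less often. Its levels were 185, 246 and 202 CPM in FVB/N hippocampi, and 295, 345 and 258 CPM in TgR hippocampi. All 3 TgR hippocampi lay above all 3 FVB/N hippocampi, the highest FVB/N library being close to the lowest TgR library. Such a separation, in either direction, held for 24.7% of all tested pairs. In the PFC, FVB/N libraries gave 328, 338 and 244 CPM, and TgR libraries 289.7, 477, 322 and 237 CPM. TgR PFC replicate 2, the shallowest library, was the highest of all, and the PFC groups overlapped.

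miR-143-3p came second, with rank 46 to 67. It stood at 2038, 2122 and 2739 CPM in FVB/N hippocampi and at 2221, 1839 and 2285 CPM in TgR hippocampi. In FVB/N PFC it stood at 3243, 2010.45 and 2762 CPM, which spans a wider range than the 3078, 2762, 2808 and 2755 CPM of TgR PFC. The highest level in the hippocampus and the highest in FVB/N PFC came from FVB/N hippocampus replicate 3 and FVB/N PFC replicate 1, which were also the highest of their groups for miR-126a-3p. miR-143-5p was rare, at 3.34 to 6.66 CPM (32 to 109 counts per library), so that its fold changes carry more counting error than those of the other arms.

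**Figure D1:**
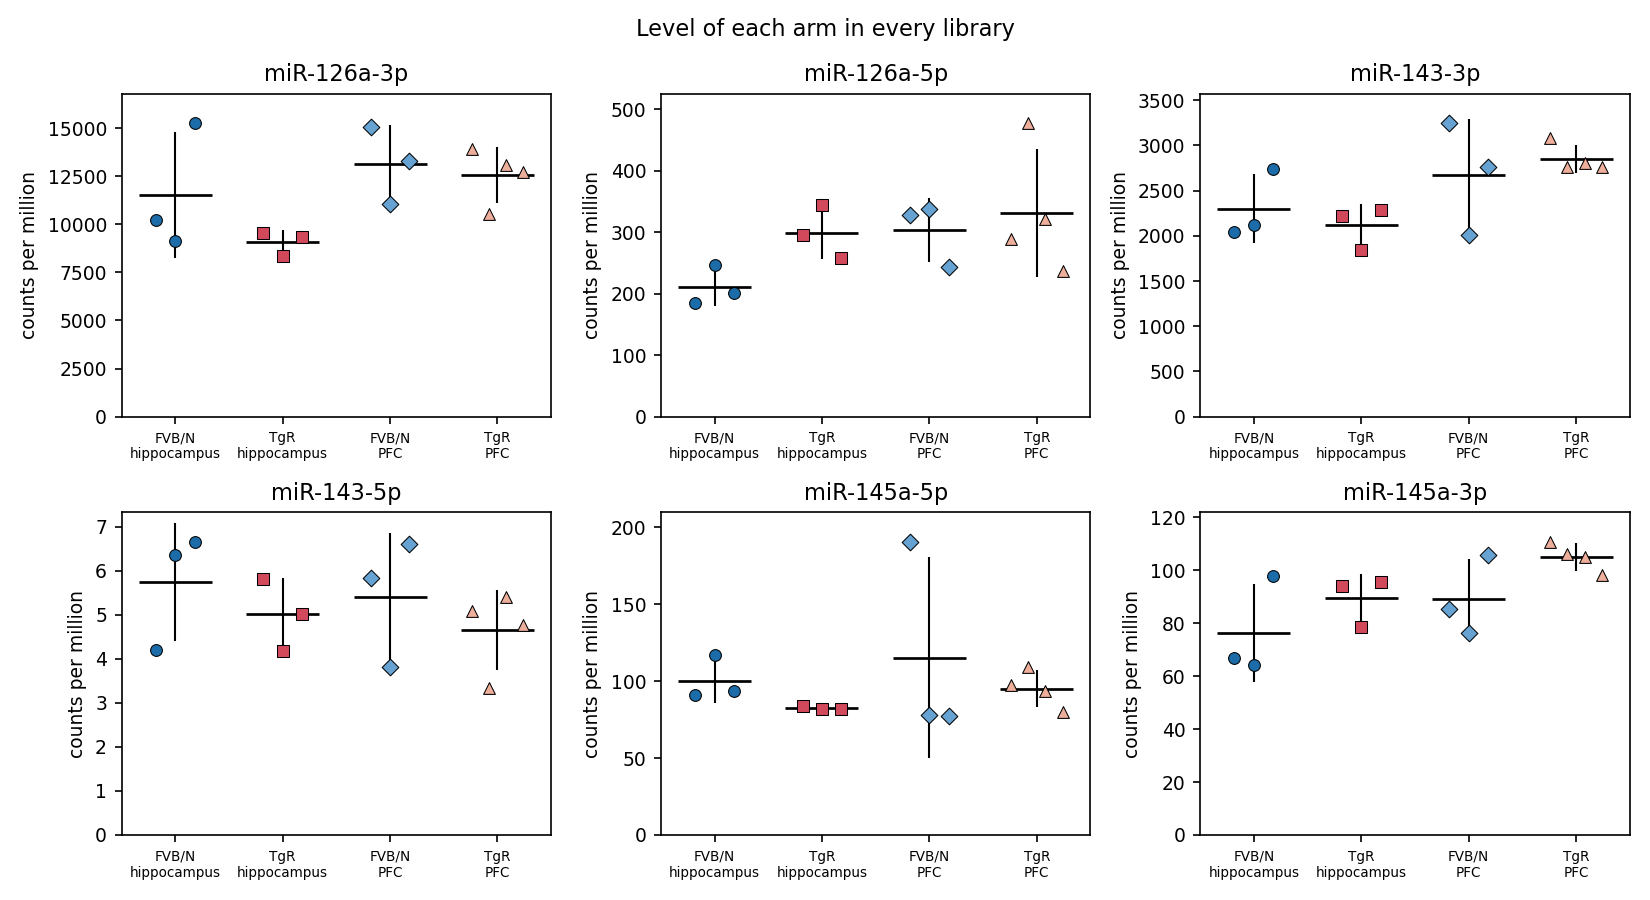
Level of each arm in CPM (linear axes from 0) in every library, by genotype and region; points are libraries in the order of their replicate number, horizontal bars are group means and vertical lines are ± 1 SD. The 3 TgR hippocampi lie above the 3 FVB/N hippocampi for miR-126a-5p and below them for miR-145a-5p. Hippocampi of the genotypes did not overlap for 24.7% of all tested pairs. FVB/N PFC replicate 1 stands apart for miR-145a-5p at 191 CPM.

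mir-145a gave similar reads from both arms. miR-145a-5p, the arm usually taken as the active one, stood at 90.9, 117 and 93.4 CPM in FVB/N hippocampi. In TgR hippocampi it stood at 84.0, 81.6 and 82.1 CPM, every TgR library below every FVB/N library, beside 24.7% of all tested pairs without overlap. The PFC levels of miR-145a-5p follow. In FVB/N PFC it stood at 191, 77.7 and 77.2 CPM, so that replicate 1 was far above its group, and in TgR PFC at 97.5, 109, 93.5 and 80.2 CPM. miR-145a-3p stood at 67.0, 64.2 and 97.7 CPM in FVB/N hippocampi, and at 93.9, 78.7 and 95.6 CPM in TgR hippocampi. Its PFC levels were 85.3, 76.3 and 106 CPM in FVB/N mice, and 111, 106, 105 and 98.1 CPM in TgR mice. FVB/N PFC replicate 1 was not high for this arm. The related hairpin mir-145b was listed with 19 counts in all over the 13 libraries.

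Mir143 and Mir145a are neighbours on the minus strand of chromosome 18 (GRCm38), at positions 61649196 to 61649258 and 61647825 to 61647894, with 1301 bases between them. In RefSeq both fall within the long non-coding RNA gene Carmn. The reads of mir-143 outnumbered those of mir-145a nonetheless, and the ratio of miR-143-3p to miR-145a-5p ran from 17.0 in FVB/N PFC replicate 1 to 35.8 in FVB/N PFC replicate 3. Group means of this ratio ± SD were 23.3 ± 5.65 in FVB/N hippocampus (n = 3), 25.6 ± 2.75 in TgR hippocampus (n = 3), 26.2 ± 9.39 in FVB/N PFC (n = 3) and 30.3 ± 3.79 in TgR PFC (n = 4), which overlap.

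To ask whether AChE-R excess went along with a change in vessel wall miRNAs of the hippocampus, TgR and FVB/N hippocampi were compared with edgeR's quasi-likelihood test over 726 pairs. None of the 6 arms passed an adjusted p under 0.05, where 25 pairs (3.44%) did so over the whole table. The arm with the largest difference was miR-126a-5p, which was 1.42-fold the FVB/N level in TgR hippocampi (log2 fold change 0.50, SE 0.17, 95% interval 1.09-fold to 1.85-fold), with an unadjusted p of 0.0163 and an adjusted p of 0.158 in edgeR. It ranked 75 of 726 by p. On the log2 scale, miR-126a-3p was at −0.33 (SE 0.18, adjusted p = 0.345, edgeR). The value of miR-145a-5p was −0.28 (SE 0.16, adjusted p = 0.384, edgeR). miR-145a-3p gave 0.24, miR-143-5p −0.19 and miR-143-3p −0.11. Libraries of the 2 genotypes did not overlap for 2 of the 6 arms, miR-126a-5p and miR-145a-5p, beside 24.7% of all tested pairs.

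For miR-143-3p, the interval in the hippocampus ran from 0.731-fold to 1.17-fold of the FVB/N level, and for miR-126a-3p from 0.601-fold to 1.05-fold. Without FVB/N hippocampus replicate 3, the library with the most miR-126a-3p, the count of pairs called over the whole table fell from 25 to 1. Over 14 alternatives, single libraries left out among them, the log2 fold change of miR-126a-3p ran from −0.51 to −0.13. The arm was called in none of them.

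In the PFC, none of the 6 arms passed the threshold and each had an adjusted p of 1.00 (edgeR), where 1 of 730 pairs (0.137%) was called. The log2 fold changes of TgR against FVB/N lay between −0.31 for miR-145a-5p and 0.21 for miR-145a-3p. The value of miR-145a-5p rested on FVB/N PFC replicate 1, since without that library it was 0.29. miR-126a-3p differed by −0.10 (95% interval 0.764-fold to 1.15-fold), and miR-143-3p by 0.06 (0.810-fold to 1.35-fold). For miR-126a-5p the difference was 0.11 (0.713-fold to 1.64-fold). Libraries of the genotypes overlapped for all 6 arms, and did not overlap for 4.93% of all pairs.

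The effect of genotype on an arm in the hippocampus was then compared with that in the PFC in 1 fit over the 13 libraries. None of the 6 arms was called, beside 4 of 751 pairs (0.533%). The difference of the effects, hippocampus minus PFC on the log2 scale, was 0.38 for miR-126a-5p (SE 0.32, adjusted p = 0.910, edgeR) and −0.28 for miR-126a-3p (SE 0.24, adjusted p = 0.924, edgeR). No difference between the regions was thus shown for miR-126a-5p, whose levels separated the genotypes in the hippocampus and overlapped in the PFC.

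**Figure D2:**
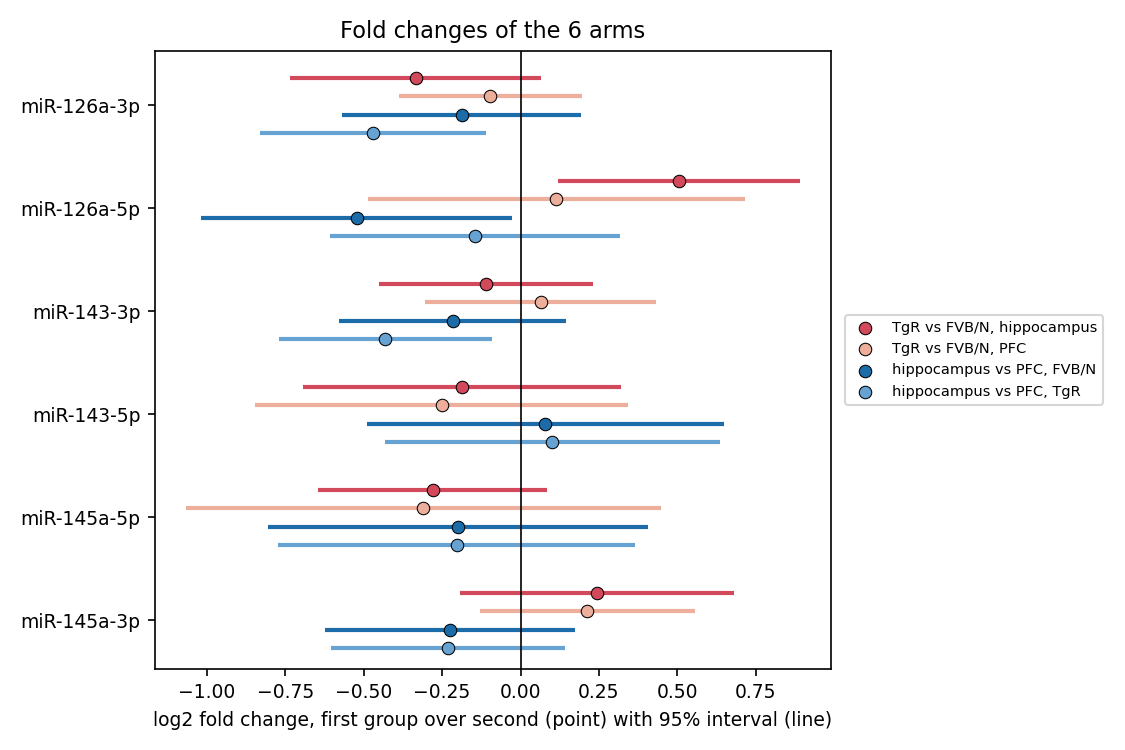
Fold changes of the 6 arms on the log2 scale (points, first group of the pair over the second) with 95% intervals (lines) for 4 comparisons; the vertical line marks no difference. Intervals leave out 0 for miR-126a-5p between genotypes in the hippocampus (0.50) and between regions in FVB/N mice (−0.52), and for miR-126a-3p (−0.47) and miR-143-3p (−0.43) between regions in TgR mice, and none of these passed the adjusted threshold.

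Between regions, the main arms were lower in the hippocampus than in the PFC by point estimate in both genotypes, and none of the 6 arms was called. Over the whole table, 40 of 751 pairs (5.33%) were called in FVB/N mice and 60 of 751 (7.99%) in TgR mice. In TgR mice, miR-126a-3p in the hippocampus was 0.722-fold its PFC level (log2 fold change −0.47, SE 0.17, unadjusted p = 0.0138, adjusted p = 0.106, edgeR). miR-143-3p was 0.742-fold its PFC level (log2 fold change −0.43, SE 0.16, unadjusted p = 0.0168, adjusted p = 0.120, edgeR). TgR hippocampi lay below TgR PFC libraries without overlap for 3 of the 6 arms, miR-126a-3p, miR-143-3p and miR-145a-3p, beside 22.5% of all pairs in either direction. When TgR libraries were fitted without the FVB/N libraries, miR-126a-3p (−0.45, adjusted p = 0.0238, edgeR) and miR-143-3p (−0.41, adjusted p = 0.0280, edgeR) passed the threshold. That fit called 83 of 738 pairs over the whole table.

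In FVB/N mice, the same contrast gave −0.19 for miR-126a-3p (SE 0.18, adjusted p = 0.633, edgeR) and −0.22 for miR-143-3p (SE 0.17, adjusted p = 0.553, edgeR). miR-126a-5p gave the largest value, −0.52 (SE 0.23, unadjusted p = 0.0402, adjusted p = 0.213, edgeR), and in TgR mice −0.15. Hippocampal and PFC libraries of FVB/N mice overlapped for all 6 arms, and did not overlap for 22.4% of all pairs. miR-145a-5p gave −0.20 in both genotypes, and in FVB/N mice 0.33 without FVB/N PFC replicate 1. miR-145a-3p gave −0.22 in FVB/N and −0.23 in TgR mice, and miR-143-5p 0.08 and 0.10.

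Ratios of counts within a library do not depend on scaling between libraries. Each was tested for genotype and for region, 12 tests in all, with exact permutation of the labels within region or genotype. miR-126a-5p amounted to 1.81%, 2.70% and 1.32% of miR-126a-3p in FVB/N hippocampi, and to 3.10%, 4.12% and 2.77% in TgR hippocampi. The genotypes thus separated in the hippocampus, as they did for 53 of 269 hairpins (19.7%) whose arms could both be measured. In FVB/N PFC the values were 2.17%, 3.07% and 1.84%, and in TgR PFC 2.08%, 4.54%, 2.46% and 1.86%, which overlap. Over both regions the ratio was 1.40-fold higher in TgR mice (log2 difference 0.49, two-sided exact permutation p = 0.113, adjusted p = 0.339). In the hippocampus by itself the log2 difference was 0.82, with an exact p of 0.1, the smallest that 3 against 3 libraries can give, and in the PFC 0.15 (exact p = 0.743). By size of this difference over both regions mir-126a ranked 28 of 269 hairpins.

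Depth moved with this ratio in the PFC. The shallowest PFC libraries, TgR replicate 2 (8769851 counts) and FVB/N replicate 2 (11386005 counts), had the highest values, 4.54% and 3.07%. In the hippocampus, TgR libraries held 14435742 to 18385985 counts and FVB/N libraries 13077865 to 15504776, ranges that overlap. Within TgR hippocampi the shallowest library, replicate 2, had the highest ratio, 4.12%. Within FVB/N hippocampi the deepest library, replicate 2, had the highest ratio, 2.70%. The part of depth in this ratio was not tested.

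**Figure D3:**
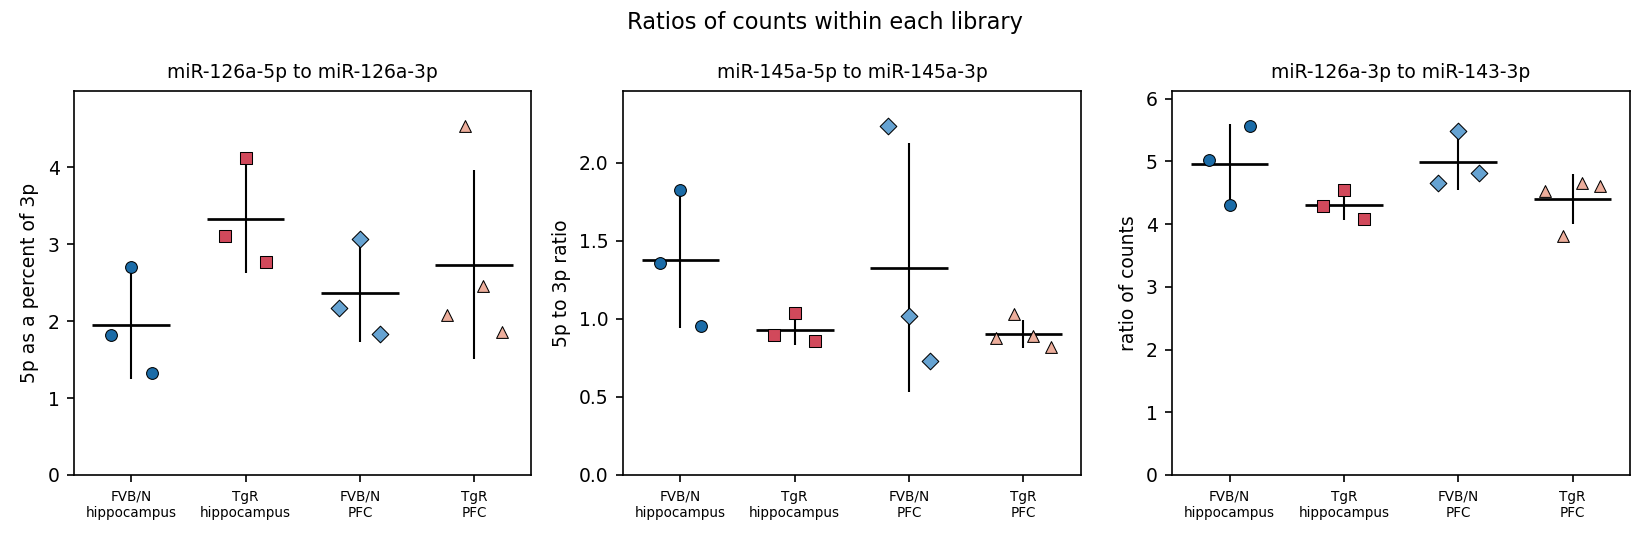
Ratios of counts within each library (linear axes from 0) by genotype and region; points are libraries in the order of their replicate number, horizontal bars are group means and vertical lines ± 1 SD. miR-126a-5p reaches 2.77% to 4.12% of miR-126a-3p in TgR hippocampi against 1.32% to 2.70% in FVB/N hippocampi. Arm ratios of the genotypes did not overlap in the hippocampus for 19.7% of 269 hairpins. The miR-145a arms lie within 0.818 and 1.04 in all 7 TgR libraries.

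The arms of mir-145a were read at 1.36, 1.82 and 0.956 reads of 5p per read of 3p in FVB/N hippocampi, and at 0.895, 1.04 and 0.858 in TgR hippocampi. In FVB/N PFC the ratio was 2.24, 1.02 and 0.731, and in TgR PFC 0.880, 1.03, 0.890 and 0.818. TgR libraries were close to each other in both regions. Of the 6 FVB/N libraries, 3 lay above the range of all TgR libraries, 2 within it and 1, PFC replicate 3, below it. Over both regions the ratio was lower in TgR mice by a log2 difference of −0.46 (two-sided exact permutation p = 0.0814, adjusted p = 0.326). For mir-143 the difference was −0.20 (exact p = 0.167, adjusted p = 0.401). Between regions, miR-143-5p was 0.206% to 0.299% of miR-143-3p in FVB/N hippocampi and 0.180% to 0.239% in FVB/N PFC, and in TgR mice 0.220% to 0.262% in the hippocampus against 0.121% to 0.193% in the PFC. The log2 difference of hippocampus minus PFC was 0.42, with an exact p of 0.01 and an adjusted p of 0.12.

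To compare endothelial with mural miRNAs, miR-126a-3p was set against miR-143-3p in each library. The ratio was 5.01, 4.30 and 5.56 in FVB/N hippocampi and 4.29, 4.54 and 4.08 in TgR hippocampi. It was 4.65, 5.49 and 4.81 in FVB/N PFC, and 4.53, 3.81, 4.66 and 4.61 in TgR PFC. TgR libraries were lower on average in both regions with overlap in each. The log2 difference was −0.19 (two-sided exact permutation p = 0.0314, adjusted p = 0.189 over the 12 tests of ratios). Within region it was −0.20 in the hippocampus (exact p = 0.2) and −0.18 in the PFC (exact p = 0.0857). miR-143-3p to miR-145a-5p differed by 0.21 (exact p = 0.251, adjusted p = 0.503) and miR-126a-3p to miR-145a-5p by 0.02 (exact p = 0.906, adjusted p = 0.930).

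Libraries with more miR-143-3p than the mean of their group also held more miR-126a-3p. Over the 13 libraries, each set against its group mean, Pearson's r was 0.82 (permutation p = 0.00374, adjusted p = 0.0337 over 9 relations) and Spearman's rho 0.84 (permutation p = 0.00386, adjusted p = 0.0347). Without FVB/N PFC replicates 1 and 2, the libraries farthest from the median of miR-143-3p, r was 0.83. Within the hippocampus by itself r was 0.88 and within the PFC 0.82, with adjusted permutation p of 0.501 and 0.343. Within a region the groups allow too few permutations for a lone relation to pass after adjustment, so these p-values cannot decide. With libraries scaled to their total alone, r was 0.84 and the adjusted permutation p 0.0913, so the relation did not pass the threshold under that scaling. Both miRNAs share the library and its scaling factor. The relation was set beside 642 other mature miRNAs that passed the filter and had a read in every library. Their median r with miR-143-3p was 0.05, the 5th to 95th percentiles ran from −0.50 to 0.59, and miR-126a-3p ranked 5.

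miR-145a-5p, the neighbour of miR-143 on the chromosome, gave r = 0.51 with miR-143-3p (permutation p = 0.460, adjusted p = 0.691), rho = 0.40 (adjusted permutation p = 0.672), and ranked 55 among the same 642 mature miRNAs. The value rested on FVB/N PFC replicates 1 and 2, as r was −0.18 without them. miR-145a-5p with miR-126a-3p gave r = 0.16 (permutation p = 0.700, adjusted p = 0.896). The remaining relations, of these 3 miRNAs with the red blood cell miRNA miR-451a and with the library total, gave r between −0.30 and 0.47, and none passed the threshold (smallest adjusted permutation p = 0.350).

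**Figure D4:**
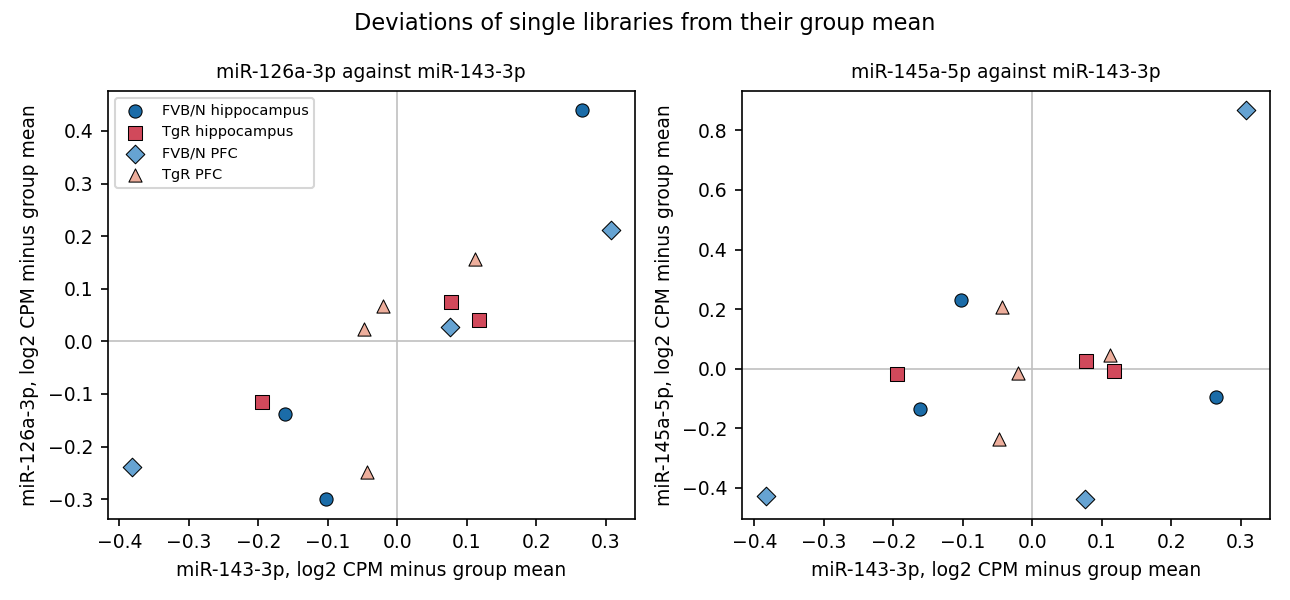
Deviation of each library from its group mean in log2 CPM, with miR-126a-3p (left) and miR-145a-5p (right) against miR-143-3p; each point is a library, with colour and shape by group. The left panel shows the relation with r = 0.82, and on the right r = 0.51 comes from FVB/N PFC replicates 1 and 2 at the corners.

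The miRNAs whose deviations were most like those of miR-126a-3p over the 13 libraries were miR-125b-1-3p (r = 0.88), miR-148a-3p (r = 0.84) and miR-136-5p (r = 0.83). For miR-143-3p they were miR-20b-5p (r = 0.84, at 0.584 CPM on average), miR-450b-3p (r = 0.83, at 1.50 CPM) and miR-199a-3p (r = 0.83, at 77.5 CPM). For miR-145a-5p they were miR-129-1-3p (r = 0.92), miR-326-3p (r = 0.90) and miR-365-3p (r = 0.89). They were chosen as the highest of 637 compared mature miRNAs, so the values are descriptions.

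Other miRNAs of the vessel wall were set beside the members. Of 13 listed pairs of hairpins known from endothelium (mir-23a, mir-27a, mir-24-2, mir-130a, mir-221, mir-222 and mir-126b), 10 were tested, and none was called between genotypes in the hippocampus or the PFC. Their median log2 fold change was 0.09 in the hippocampus and 0.07 in the PFC, beside 0.00 (−0.00306 and 0.00149) for all pairs. The most abundant, miR-24-3p, had 0.13 in the hippocampus and −0.01 in the PFC. Between regions, 5.33% of all pairs were called in FVB/N mice and 7.99% in TgR mice. Of the 10 tested here, 3 were lower in the hippocampus of FVB/N mice. They were miR-24-2-5p at −0.72 (adjusted p = 0.00721), miR-23a-3p at −0.67 (adjusted p = 0.0433) and miR-27a-3p at −0.45 (adjusted p = 0.0250, all edgeR). In TgR mice miR-24-2-5p was lower, by −0.73 (adjusted p = 0.00276, edgeR). Without FVB/N hippocampus replicate 3 (42 of 774 pairs called), 1 was lower in FVB/N mice. Without FVB/N PFC replicate 3 (60 of 776 pairs called), 2 were lower and 1 was higher. These miRNAs share a cluster on the genome. The list is not specific to endothelium, as neurons and glia also make several of its members.

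Of 9 listed pairs of mural and mesenchymal hairpins (mir-199a, mir-199b, mir-214 and mir-145b), 7 were tested in the hippocampus and 8 elsewhere, and none was called in any of the 5 comparisons with edgeR. Without FVB/N hippocampus replicate 2, 2 were lower in the hippocampus than in the PFC of TgR mice, in a fit that called 81 of 776 pairs. The same 2 were lower without TgR hippocampus replicate 1, beside 28 of 775 pairs called. They are copies of the same mature miRNA, miR-199a-5p. At an unadjusted p under 0.05 (edgeR), there were 0 between genotypes in the hippocampus, beside 127 of 726 pairs over the whole table. In the PFC there were 2, beside 19 of 730 pairs. They are again the copies of miR-199a-5p, with nearly the same reads (log2 fold change 0.54, adjusted p = 1.00, edgeR). The median log2 fold change of the list was −0.11 in the hippocampus and 0.50 in the PFC, where the 8 tested pairs, 5 of them copies of miR-199a or miR-199b-3p with nearly the same reads per arm, ran from 0.43 to 0.68. miR-199a-3p, listed at several hairpins with the same reads, had a log2 fold change of −0.11 in the hippocampus and 0.43 in the PFC (adjusted p = 0.843 and 1.00, edgeR). The summed level of the list ranged from 249 to 342 CPM in FVB/N and from 214 to 363 CPM in TgR hippocampi. In the PFC it ranged from 177 to 309.9 CPM in FVB/N and from 308 to 415 CPM in TgR mice. Reads listed at several hairpins enter this sum at each, so it stands above the level of the miRNAs.

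Vessels can also hold blood, and whether the sequenced mice were perfused is not given in the sources used here. Over the whole table, 25 of 726 pairs (3.44%) were called between genotypes in the hippocampus. Of 7 red blood cell pairs (miR-144, miR-451a, miR-486), 2 were lower in TgR hippocampi, miR-451a by a log2 fold change of −0.86 and miR-144-5p by −1.01 (both adjusted p = 0.0427, edgeR). The count was 0 of 7 without FVB/N hippocampus replicate 1 or 3 or TgR hippocampus replicate 1. It was 1 without TgR hippocampus replicate 2 and 3 without FVB/N hippocampus replicate 2. In the order named, these fits called 12 of 743, 1 of 741, 18 of 737, 17 of 742 and 28 of 735 pairs over the whole table. The summed level was 1326 to 1491 CPM in FVB/N and 591 to 836 CPM in TgR hippocampi, without overlap. In the PFC it was 1287 to 1832 CPM in FVB/N and 1460.1 to 2411 CPM in TgR mice. The sum holds miR-486a-5p and miR-486b-5p as separate rows, at 207 and 219 CPM on average over the libraries. Hippocampi of the genotypes did not overlap for 24.7% of all tested pairs. Between regions, 3 of 7 red blood cell pairs were lower in the hippocampus of TgR mice and none in FVB/N mice, beside 7.99% and 5.33% of all pairs called. Of 6 white blood cell pairs (miR-142a, miR-150, miR-223), none was called between genotypes. Of these, 2, both arms of mir-142a, were lower in the hippocampus of TgR mice (miR-142a-5p −0.61, adjusted p = 0.0103, edgeR). Between regions in TgR mice, 0 to 2 were called when single libraries were left out. The count was 0 without TgR hippocampus replicate 2 or 3, in fits that called 55 of 779 and 31 of 774 pairs. In that contrast the called red blood cell pairs were lower, and miR-126a-3p was at −0.47 and not called. The part of blood in its value was not tested.

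Muscle miRNAs are the other set that could accompany mural cells. Beside 25 of 726 pairs (3.44%) called in either direction, 4 of 6 tested pairs of striated muscle hairpins were higher in TgR hippocampi. They are the copies of miR-1a-3p, at 0.80 on the log2 scale (adjusted p = 0.0449, edgeR), and of miR-133a-3p, at 0.98 (adjusted p = 0.0427, edgeR), each listed at a pair of hairpins with nearly the same reads. The count was 0 without FVB/N hippocampus replicate 1 or 3 or TgR hippocampus replicate 2 or 3, and 2 without TgR hippocampus replicate 1. Over the whole table these fits called 12 of 743, 1 of 741, 17 of 742, 9 of 731 and 18 of 737 pairs, in the order named. The summed level was 379.5 to 542 CPM in FVB/N and 733 to 872 CPM in TgR hippocampi. Reads listed at a pair of hairpins enter this sum at each, so it stands above the level of the miRNAs. In the PFC none was called, and the sum was 414 to 823 CPM in FVB/N mice and 671, 497, 489.7 and 2599.7 CPM in TgR mice, replicate 4 standing far above the others. miR-143-3p and miR-145a-5p, which mark smooth rather than striated muscle, were at −0.11 and −0.28 between genotypes in the hippocampus and were not called.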

How the data were processed

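Small RNA libraries were made with the NEBNext kit from 300 ng of total RNA (RNA integrity 8.6 to 9.3) and read on a NextSeq instrument. The authors checked the reads with FastQC 0.11.8, aligned them to miRBase version 21 with miRExpress 2.0 under default settings, and deposited raw counts per pair of hairpin and mature miRNA. Unlisted pairs were taken as 0. A mature miRNA made from more than 1 hairpin has a row for each, and its reads can be counted in several rows, with equal or unequal counts. No library of a group matched another within sampling noise (chi-square per degree of freedom 56.7 to 594). Reads carry no molecular identifiers, so floors cover counting error only.

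Groups and replicate numbers came from the titles. For FVB/N PFC the deposited files carry another numbering, so same-numbered PFC libraries may not belong together. Counts were tested with edgeR 4.0.16 in R 4.3.3 (TMM, filterByExpr with a minimum of 10 counts, quasi-likelihood test, Benjamini-Hochberg over all tested pairs, threshold 0.05). Genotype was tested within region, and regions and the difference of effects over all 13 libraries. Ratios used log2(count + 0.5) and all 700 assignments, so that the smallest p is 0.00143. Covariation used log2 CPM minus the group mean and 100000 permutations within groups. Intervals are 95%. Scripts were tested on simulated counts. Alternatives were DESeq2 1.42.0, limma 3.58.1 (voom), other scalings and filters, pseudocounts of 0.1 and 1, a row per mature miRNA, other sets of libraries, leaving out single libraries, and a replicate block. Members, marker lists and tests were chosen with earlier results of these data known. Named miRNAs are all member arms, list members (up to 4 of the most abundant and those called), and the 3 most similar miRNAs of each main arm. Sequences of mir-143 and mir-145a are not reported here.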

Additional observations from a re-analysis of the deposited data

Results flagged for a closer look

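Among the 12 sets of values from TgR PFC that were checked for a library far from the others (that group alone has 4 libraries), 2 had one. Chance gives such a library in about 1 of 20 groups. miR-143-3p stood at 3078 CPM in TgR PFC replicate 1, where the other 3 libraries stood at 2755 to 2808 CPM. The ratio of miR-126a-3p to miR-143-3p was 3.81 in TgR PFC replicate 2, the shallowest library, and 4.53 to 4.66 in the other 3.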

How the results depend on the processing

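None of the 6 arms was called under any alternative in the comparisons of genotype, in their difference between regions, or between regions in FVB/N mice. None of the 12 tests of ratios passed. Between regions in TgR mice, the count of arms called was 2 with TgR libraries only, beside 83 of 738 pairs, and 0 to 2 over all alternatives. Leaving out single libraries gave 0 to 1. miR-143-3p was called without FVB/N PFC replicate 1 (adjusted p = 0.0442, edgeR) or 2 (0.0353). miR-126a-3p was called without FVB/N hippocampus replicate 2 (adjusted p = 0.0453, edgeR) or 3 (0.0378). In that order, these fits called 72 of 777, 69 of 776, 81 of 776 and 69 of 774 pairs. The covariation count fell from 1 to 0 with library size only. It was also 0 in the hippocampus by itself and in the PFC by itself, where fewer libraries entered. There the groups allow too few permutations for a lone relation to pass after adjustment, so these counts cannot decide on the relation.

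Several small differences changed sign when a library was left out, and over all alternatives TgR against FVB/N in the PFC ran from −0.21 to 0.035 for miR-126a-3p, −0.16 to 0.26 for miR-126a-5p, −0.11 to 0.25 for miR-143-3p and −0.53 to 0.29 for miR-145a-5p. Hippocampus against PFC ran in FVB/N mice from −0.48 to 0.33 for miR-145a-5p and −0.17 to 0.31 for miR-143-5p, and in TgR mice from −0.28 to 0.083 for miR-126a-5p and −0.021 to 0.25 for miR-143-5p. The ratio of miR-126a-3p to miR-145a-5p ran from −0.14 to 0.16, and gave −0.020 with the replicate block. In the hippocampus by itself, r was −0.20 for miR-143-3p with miR-145a-5p and −0.55 for miR-145a-5p with miR-126a-3p. The causes were not tested.

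Same-numbered libraries deviated from their group means with correlations of −0.22 to 0.42, and in none of the 4 pairs of groups were all 3 over 0.1, so the numbers were not taken as pairs. Between FVB/N PFC and FVB/N hippocampus 5 of 6 libraries correlated best with their own number, and 2 to 4 of 6 elsewhere. The replicate block called 0 of the 6 arms in each comparison, and 9 (hippocampus), 1 (PFC), 10 (difference), 38 (regions, FVB/N) and 47 (regions, TgR) pairs overall against 25, 1, 4, 40 and 60. DESeq2 called 53, 1, 26, 84 and 82, and edgeR without a filter 63, 1, 13, 69 and 71. With library size only the hippocampal calls were 12 higher and 6 lower (14 and 11 with TMM), those between regions in TgR mice 49 and 20 (29 and 31 with TMM), and the median of all pairs there moved to 0.14, against which miR-126a-3p at −0.34 and miR-143-3p at −0.30 were read.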

Other observations

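The counts between regions below stand beside 5.33% of all pairs called in FVB/N mice and 7.99% in TgR mice. None of the 15 tested neuronal pairs was called between genotypes, and 2, the copies of miR-128-3p, were lower in the hippocampus of TgR mice (log2 fold change −0.72 and −0.67, adjusted p = 0.0198 and 0.0262, edgeR). Both calls were lost without TgR PFC replicate 1, 3 or 4 or TgR hippocampus replicate 1 or 3. In the order named, these fits called 39, 29 and 44 of 749, 28 of 775 and 31 of 774 pairs, against 60 of 751. Oligodendrocyte miRNAs, which belong to myelinating cells, were higher in the hippocampus for 4 of 6 pairs in FVB/N mice and 5 of 6 in TgR mice, with miR-219a-2-3p at 1.52 (adjusted p = 0.00721) and 2.22 (adjusted p = 0.000171, both edgeR). In FVB/N mice the count was 1 without FVB/N PFC replicate 1 or FVB/N hippocampus replicate 2, beside 32 of 777 and 23 of 776 pairs called. Of 3 choroid plexus pairs, 2 were higher in the hippocampus of TgR mice, with miR-204-5p at 2.09 (adjusted p = 0.000331, edgeR), and none was called in FVB/N mice. Without FVB/N PFC replicate 2, 1 choroid plexus pair was lower in FVB/N hippocampus, beside 27 of 776 pairs called. In TgR hippocampi the summed choroid plexus level ran from 999 to 3159 CPM, and in FVB/N hippocampi from 671 to 1047 CPM. The choroid plexus is rich in vessels, and its part in the member levels was not tested.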
